A study of Arabidopsis thaliana with 121 samples.

Results

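Transcripts were counted in leaves of Arabidopsis plants mutated in both CDCA7 genes, with a full-length CDCA7α transgene or untransformed. The plants with the transgene were of the first transformed generation. The comparison was chosen by genotype label alone. It holds 9 of the 121 libraries of the series, 5 from T1 plants of the cdca7α cdca7β-3 double mutant (cdca7ab-3 in the plots) that carried the transgene and 4 from untransformed cdca7α cdca7β-3 plants. In both groups CDCA7α carried the cdca7α-2 T-DNA insertion and CDCA7β a CRISPR–Cas9 deletion, in the Col-0 background. The transgene held the reference CDCA7α promoter and the genomic coding sequence with its introns, a C-terminal mTurquoise2 and 3xcMyc tag, the UBQ10 terminator and an mVenus seed coat reporter by which transformed seeds were picked. Also used were 5 WT plants and 2 sister plants without the transgene, which the labels call no_YFP. Each library came from a single rosette leaf of one 28-day-old plant grown in long days. T1 plants can come from separate transformation events, so copy number and insertion site can differ between them. The construct was introduced before the endogenous CDCA7 genes were completely lost, so a locus silenced anew and a locus that was never activated cannot be told apart.

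CDCA7 proteins carry a zinc finger and work with DDM1, a chromatin remodeller that gives DNA methyltransferases access to heterochromatin. In Arabidopsis, CG methylation is copied onto new DNA strands by MET1, and transposable elements (TEs) whose methylation is lost can be transcribed. CG methylation that is lost completely is regained slowly or not at all at many TEs, so a returned gene does not by itself reset each locus. TE identifiers carry the chromosome number directly after AT, and the TE annotation is that of TAIR10. No sequence of a TE or gene was used here.

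The 9 libraries held 1589457 to 3911607 estimated reads each, and plastid and mitochondrial transcripts took 7.90% to 16.7% of them. Levels are CPM, counts scaled to a common library size, after TMM scaling. Features were tested across all 82 libraries made from single leaves with edgeR's quasi-likelihood test and Benjamini-Hochberg adjustment. Calls required an adjusted p no greater than 0.1 together with a log2 fold change of 1 or more in size. Leaf markers (RBCS, RCA, CA1 and LHCB genes) summed to 14210 to 48510 CPM in untransformed and 33790 to 50090 CPM in full-length plants. Of 5 flower markers only SEP3 was tested. Together they summed to 4.50 to 47.4 CPM in untransformed plants, 7.53 to 73.6 CPM in full-length plants and 0.513 to 39.2 CPM in WT, and root and seed markers were at or near 0.

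The transgene was checked first. Reads on the tag numbered 1, 3, 44, 2 and 5 in full-length plants R1 to R5, 1, 2, 0 and 0 in untransformed plants R2 to R5, 0 and 0 in the sisters, and 0, 3, 1, 1 and 4 in WT, which has no transgene. Only plant R3 stood far above that background, at 10.9 CPM, and the 0.753 CPM of plant R1 lay within the WT range of 0 to 1.03 CPM. Log2(CPM + 1) of the tag was higher by 1.49 in full-length than in untransformed plants (exact two-sided permutation p = 0.0159, the smallest that 5 against 4 plants allow, and 0.0265 adjusted over 5 measures), and higher in 5 of 5 plants than in any of the 4. Against WT the exact p was 0.0317 and 0.158 after adjustment, and edgeR gave the tag an adjusted p of 0.266 against untransformed plants. The transcript ends at the UBQ10 terminator and the protocol reads transcript ends, so the tag count may be a poor measure of how much transgene a plant expressed, which was not tested. CDCA7α itself had 0, 2, 3, 5 and 0 reads in full-length plants, 1, 0, 1 and 0 in untransformed plants, and 2, 8, 8, 3 and 4 in WT. These counts are too low to compare the groups (exact two-sided permutation p = 0.302 between full-length and untransformed plants).

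TE transcripts were lower in each of the 5 full-length plants than in any untransformed plant. TEs took 0.685%, 0.772%, 0.803% and 0.748% of nuclear counts in untransformed plants R2 to R5. They took 0.249%, 0.312%, 0.319%, 0.279% and 0.287% in full-length plants R1 to R5, and the 5 WT plants lay at 0.283% to 0.328%. The full-length values thus overlapped WT and not the mutant. The mean was 0.289% ± 0.0279 (SD, n = 5) in full-length and 0.752% ± 0.0497 (SD, n = 4) in untransformed plants, a difference of -0.463 percentage points (exact two-sided permutation p = 0.0159, the smallest possible). The difference from WT was -0.0102 percentage points (exact two-sided permutation p = 0.532, n = 5 and 5). The sisters without the transgene had 0.692% and 0.638%, the first within the untransformed range and the other below it, and both above all full-length plants. RNA from bulk leaf was measured, so fewer cells with active TEs and less TE RNA per cell cannot be told apart.

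**Figure D1:**
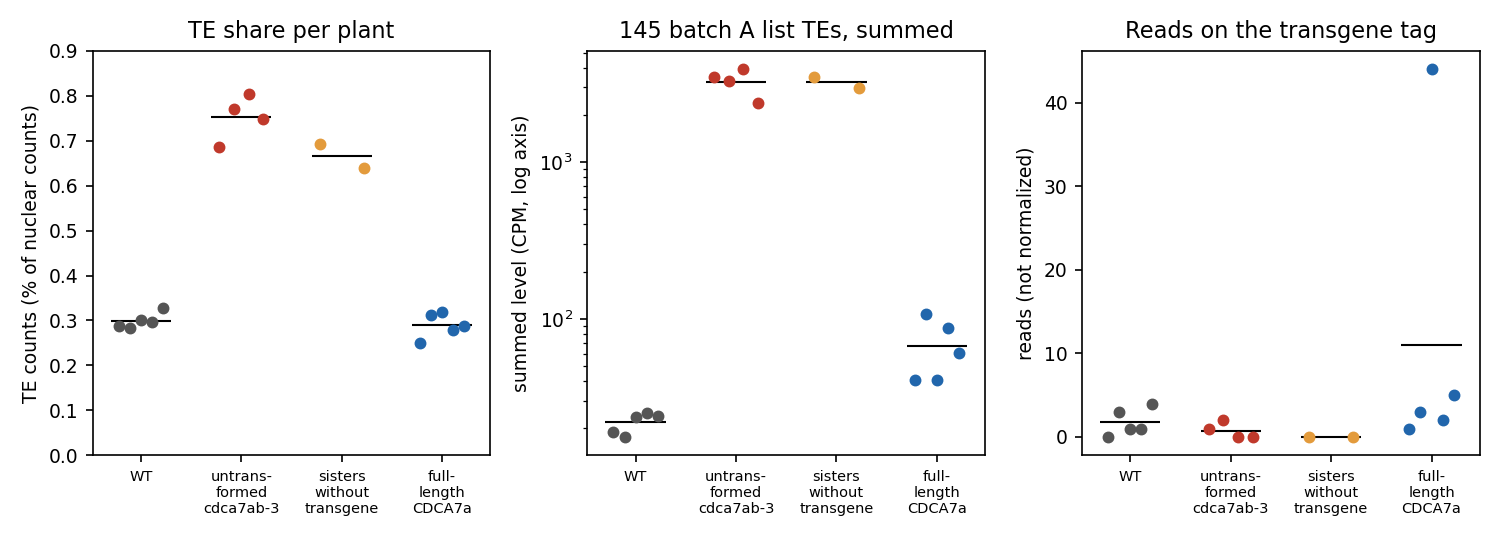
Each point is 1 plant and each line a group mean. The left panel shows the percent of nuclear counts on TEs, the middle panel the summed CPM of 145 TEs of a list from other libraries (log axis), and the right panel reads on the transgene tag. The 5 full-length plants lie at WT level on the left and between 40.6 and 108 CPM in the middle, above the 17.6 to 25.1 CPM of WT, and only plant R3 stands apart on the right.

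Of 31188 TEs counted, 420 had enough reads to be tested. Of these 420, 135 (32.1%) were lower in full-length than in untransformed plants and 0 (0%) were higher. A TE silent in WT enters the test only through libraries where it is high. The shares of TEs called are therefore partly set by the read filter and are not shares of all TEs. DESeq2 and limma-voom also called 0 TEs higher, and 5 TEs were higher at an unadjusted p under 0.05. Among 16979 other nuclear features 27 (0.159%) were lower and 3 (0.0177%) higher. In untransformed plants against WT, 187 TEs (44.5%) were higher and 0 (0%) lower, with 45 other features higher (0.265%) and 16 lower (0.0942%). In full-length plants against WT, edgeR called 0 TEs (0%) in either direction, 35 TEs had an unadjusted p under 0.05, DESeq2 called 4 higher and 5 lower, and limma-voom 0. These 3 comparisons share libraries and are set side by side only. The number of TEs called lower depended on which plants were fitted. It was 30 without full-length plant R3, the most deeply sequenced of the 5, and 85, 71, 88 and 69 without R1, R2, R4 or R5, and DESeq2 called 78. All 30 TEs called without R3 were among the 135.

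To follow TEs that were not picked on these plants, a list was taken from separate libraries. Each was made from a pool of 3 plants, older than those used here. In these libraries cdca7α cdca7β-1 and cdca7α cdca7β-2 (2 libraries each) were compared with Col-0 (3 libraries). The first of these mutants carries the same cdca7α-2 insertion as cdca7α cdca7β-3 and is not an independent CDCA7α mutant. The list held 160 TEs called higher in both mutants, of which 145 had enough reads to be tested here. All 145 had a lower fitted level in full-length than in untransformed plants. Testing required 10 reads in 3 or more of the 82 libraries. A TE with few reads in WT and full-length plants meets this only through libraries where it is high. The shared direction and the shares of TEs called lower were therefore partly set by this filter and are not support in themselves. Of the 145, 105 (72.4%) were called lower, beside 32.1% of all TEs tested, 0 were called higher, and 40 were not called. The median log2 fold change was -6.62 (range -10.31 to -0.21), against -0.02 over all 17510 features tested, and -5.08 with TEs at 0 reads set to their bound. The number called lower was 24 without full-length plant R3, 61 without R2, 60 without R5 and 66 with DESeq2, while the median stayed between -6.74 and -6.37 whichever of the 9 libraries was left out. In the other 275 TEs, 30 (10.9%) were lower and the median was -0.36.

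Few or no reads remained at most listed TEs. In 66 of the 145 TEs no read was found in any of the 5 full-length plants. In 135 of the 145 the full-length plants all lay below the lowest untransformed plant, as they did in 404 of all 17510 features. Among the 40 TEs that were not called, 31 also had ranges that did not overlap. These 40 had a median of 47.5 reads summed over the untransformed plants, against 219 for the 105 that were called. Some of the 40 had more, such as AT3TE51660 with 229. Whether the number of reads decided the calls was not tested. By chromosome, 16 of 22 listed TEs were called lower on chromosome 1, 22 of 32 on chromosome 2, 18 of 29 on chromosome 3, 24 of 33 on chromosome 4 and 25 of 29 on chromosome 5. Between untransformed plants and WT, 136 of the 145 TEs were called higher in the mutant with a median log2 fold change of 6.77. Between full-length plants and WT edgeR and limma-voom called 0 in either direction, while DESeq2 called 4 higher (AT3TE51660, AT4TE09845, AT5TE47200 and AT3TE69350) and 3 lower (AT1TE42225, AT1TE62470 and AT2TE11355, each with 0 reads in full-length plants and at most 3 in any WT plant). By edgeR the median was 0. A TE with no read in either group is fitted at 0, as AT2TE19485 and AT5TE36940 were, so this median is a weak measure of a return to WT level. At edgeR's unadjusted p under 0.05 there were 8 higher listed TEs and 0 lower, beside 35 of all 420 TEs in either direction.

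**Figure D2:**
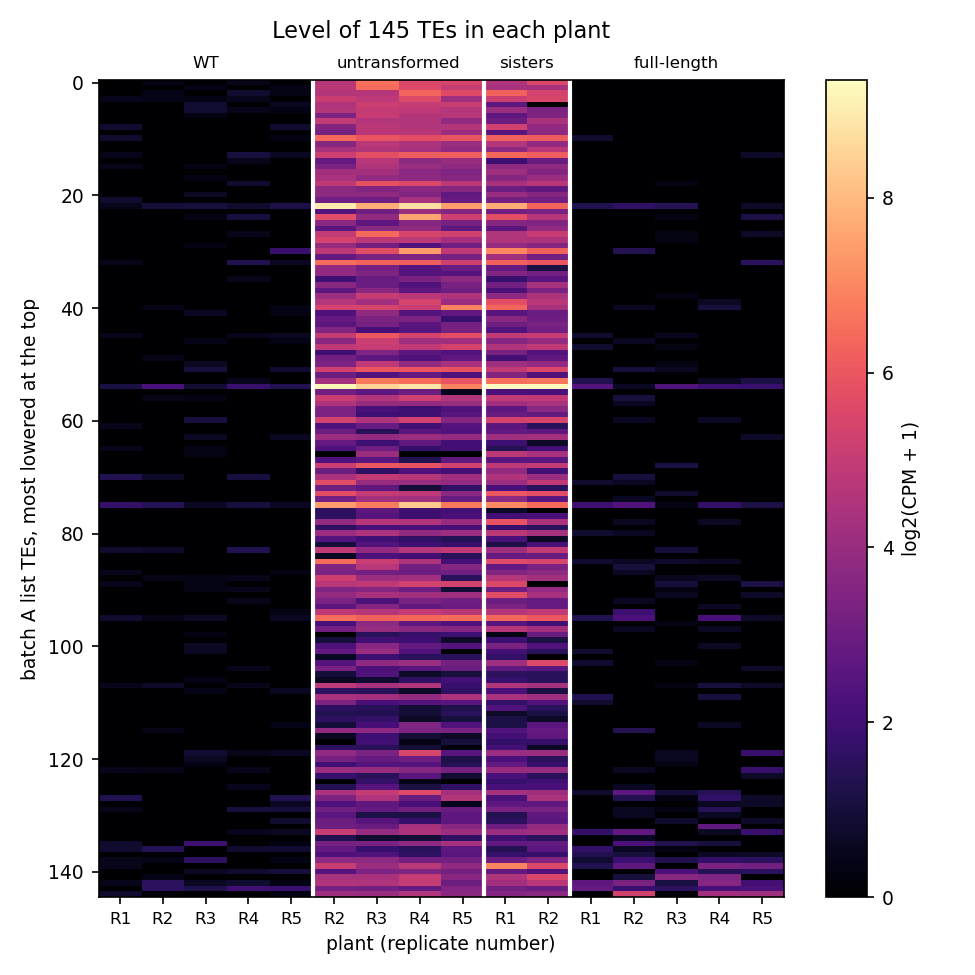
Each line of the heat map is 1 of the 145 listed TEs, ordered by log2 fold change with the most lowered at the top, and each column 1 plant. Colour gives log2(CPM + 1). Untransformed plants and sisters are bright down the whole list, WT and full-length plants are dark, and the full-length columns brighten most in the lowest lines.

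**Figure D3:**
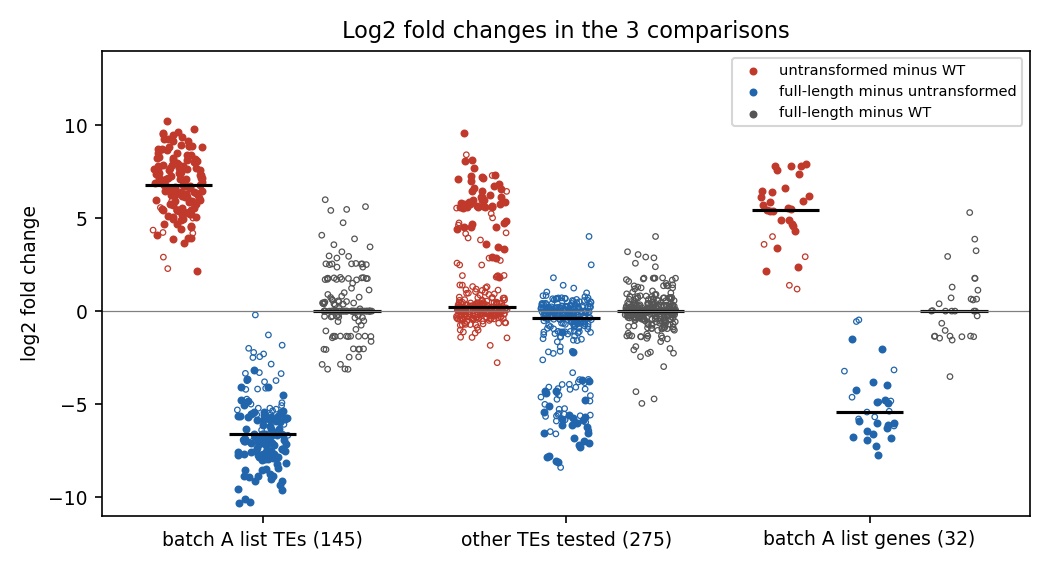
Log2 fold changes fitted by edgeR for the 145 listed TEs, the other 275 TEs tested and the 32 tested genes of the matching gene list. Filled points passed the test, open points did not, and black lines are medians. The listed TEs have a median of 6.77 for untransformed plants minus WT, -6.62 for full-length minus untransformed plants and 0 for full-length plants minus WT. In the last of these, TEs with no read in either group are fitted at 0.

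The 10 TEs with the largest decreases had no read in any full-length plant. AT3TE50025 had 48, 361, 147 and 202 reads in untransformed plants R2 to R5, 71 and 74 in the sisters, and 0, 1, 0, 1 and 0 in WT. It was high in each mutant plant without the transgene, and no read was found in any plant with it, which was at least 191.5-fold lower if 3 reads are allowed over the whole full-length group (edgeR adjusted p = 0.00548). AT1TE42225 had 54, 346, 155 and 157 reads in untransformed plants and was at least 179.9-fold lower (adjusted p = 0.00872). AT4TE20400 had 47, 95, 265 and 235 reads and was at least 162.2-fold lower (adjusted p = 0.00425). All 4 untransformed plants held reads of each, the fewest in R2, the least deeply sequenced of them. AT1TE62470 had 45, 139, 103 and 159 reads and was at least 112.7-fold lower (adjusted p = 0.0328). In the sisters it had 17 reads in one and 0 in the other. AT1TE51735, with 67, 107, 158 and 82 reads, was at least 104.6-fold lower (adjusted p = 0.0101). The remaining 5 were AT2TE11355, AT2TE21105, AT4TE18245, AT2TE19485 and AT5TE36940, with bounds of 95.5-fold, 86.9-fold, 79.8-fold, 74.8-fold and 71.2-fold. Salmon divides reads between near-identical copies by estimate, so the copy of a TE family to which a count belongs is uncertain.

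Not every listed TE was at WT level in each plant. The listed TEs summed to 3470, 3273, 3919 and 2397 CPM in untransformed plants R2 to R5 and to 3515 and 2979 CPM in the sisters. They summed to 40.6, 108, 40.8, 86.8 and 60.8 CPM in full-length plants R1 to R5, which is 1.24% to 3.31% of the untransformed mean. WT plants lay at 17.6 to 25.1 CPM, so the full-length plants did not overlap WT. A few TEs held part of what remained. The 5 least lowered TEs summed to 11.3, 52.4, 18.5, 43.4 and 25.6 CPM in plants R1 to R5 and to 1.15 to 4.50 CPM in WT. Without these 5, which were picked on these values, the remaining sum was 22.2 to 55.6 CPM in full-length plants and 13.4 to 21.2 CPM in WT.

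In 139 of the 145 TEs the lowest untransformed plant lay above the highest WT plant. The share of all features for which this held was not counted, and the read filter partly set it for the listed TEs. In 135 of these 139 all 5 full-length plants lay below the lowest untransformed plant, and in 75 all 5 lay at or below the highest WT plant. Counted by plant, 20, 32, 16, 27 and 18 of the 139 TEs were above all WT plants in R1 to R5. Where WT had no read, a single read was enough for this, and R3, the most deeply sequenced plant of these, had the fewest. In the same plants 1, 2, 1, 2 and 1 of the 139 TEs reached the untransformed range. The TEs that reached it were AT3TE51660 in 3 plants, AT4TE09845 in 2, and AT1TE45135 and AT2TE41170 in 1 each.

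AT3TE51660 was the TE with the smallest decrease. Its level was 17.0, 15.9, 22.8 and 12.1 CPM in untransformed plants and 0, 39.7, 0, 17.5 and 16.7 CPM in full-length plants R1 to R5, from 0, 75, 0, 31 and 26 reads. No read was found in R1 and R3, and R2, R4 and R5 were within or above the untransformed range. WT had 2, 0, 0, 0 and 1 reads. Its log2 fold change was -0.21 ± 1.00 (SE, n = 5 and 4, edgeR adjusted p = 1) against untransformed plants and 5.99 against WT (adjusted p = 0.132).

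AT1TE45135 also differed between plants, in another pattern. It had 0, 2, 47, 17 and 0 reads in full-length plants, 38, 77, 103 and 55 in untransformed plants and 1 read in all of WT. It was therefore at 11.6 CPM in R3, where AT3TE51660 was at 0, and at 0 in R5, where AT3TE51660 was at 16.7 CPM. Its log2 fold change was -2.0 ± 0.97 (SE, adjusted p = 0.749). AT5TE47200, named after its values were seen, had 2, 10, 0, 16 and 12 reads in full-length plants against 64, 62, 89 and 65 in untransformed plants. AT3TE55365, named in the same way, had 10 reads in R4 and 0 in the other full-length plants, with 0 in WT.

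AT4TE09845 kept reads in all 5 plants. It was at 23.0, 21.6, 31.6 and 7.08 CPM in untransformed and 5.27, 9.0, 1.23, 11.3 and 3.20 CPM in full-length plants, with 1 to 6 reads per WT plant. R2 and R4 reached the untransformed range. Its log2 fold change was -1.83 ± 0.69 (SE, adjusted p = 0.426) against untransformed plants and 2.85 against WT (adjusted p = 0.267). AT3TE21700 had 8.49, 7.71, 6.08 and 10.8 CPM in untransformed and 6.02, 2.65, 1.98, 3.38 and 3.84 CPM in full-length plants (log2 fold change -1.28 ± 0.47, adjusted p = 0.373). This TE was also transcribed in WT, with 0, 6, 5, 8 and 10 reads. AT2TE26680 had 0, 0, 15, 3 and 3 reads in full-length and 9, 37, 32 and 39 in untransformed plants (log2 fold change -2.22 ± 0.79, adjusted p = 0.339). None of these 5 passed edgeR's test against untransformed plants or against WT. DESeq2 called AT3TE51660 (log2 fold change 6.23, adjusted p = 0.097) and AT4TE09845 (2.96, adjusted p = 0.0731) higher than in WT. Against untransformed plants, limma-voom called AT3TE51660 lower (log2 fold change -3.11), and limma on RPM called AT1TE45135 and AT2TE26680 lower.

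**Figure D4:**
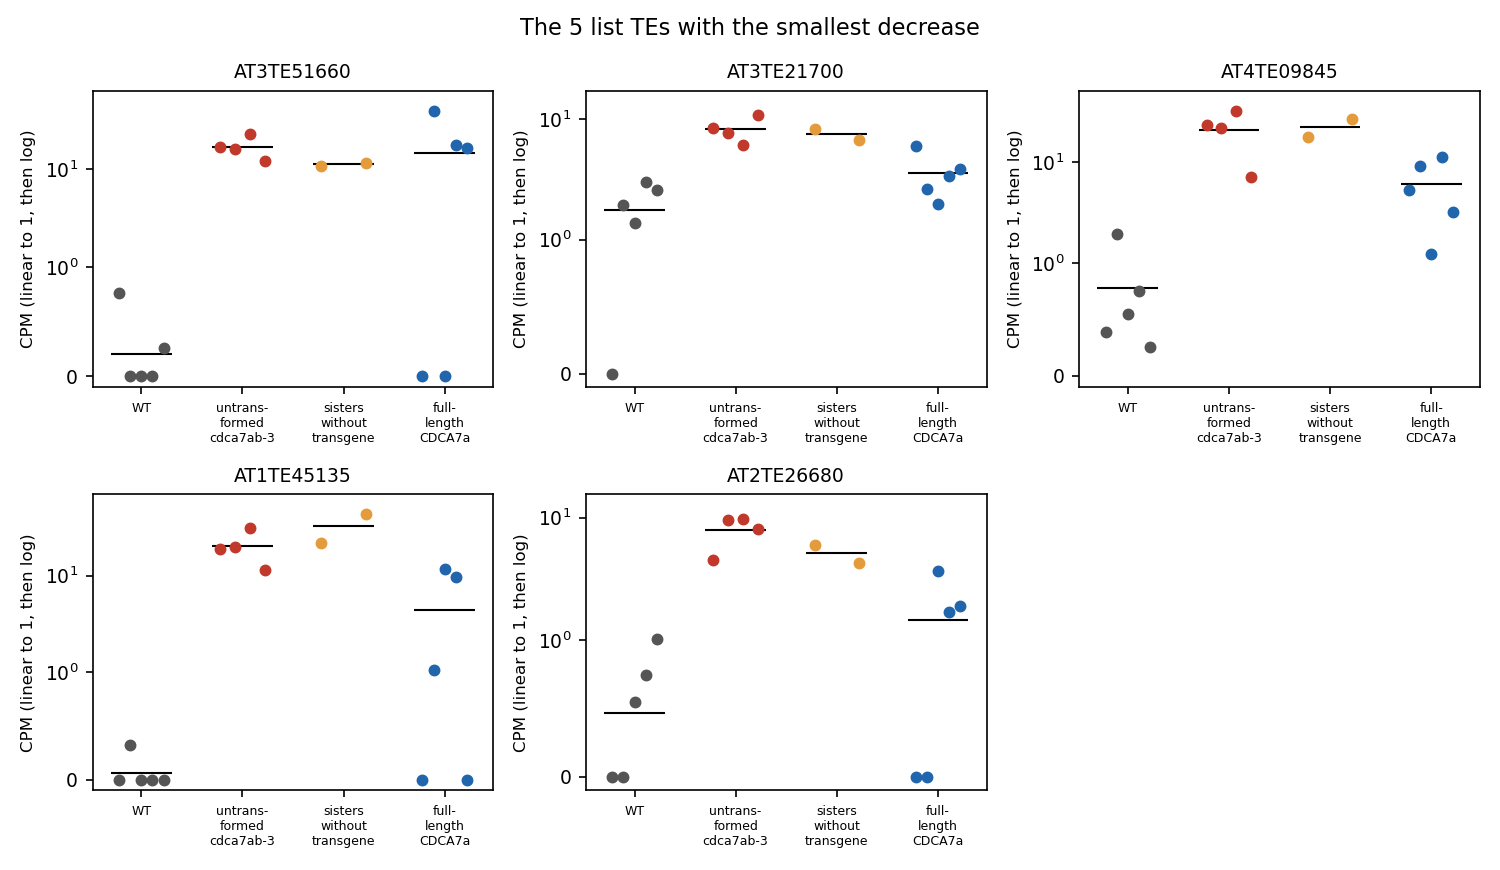
CPM of the 5 listed TEs with the smallest decrease, 1 point per plant, with group means as lines. The vertical axis is linear up to 1 CPM and logarithmic above. AT3TE51660 is at 0 in 2 full-length plants and at 16.7 to 39.7 CPM in the other 3, AT1TE45135 is at 0 in 2 and at up to 11.6 CPM in the others, and AT4TE09845 and AT3TE21700 have full-length means between those of mutant and WT.

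The sisters without the transgene also had high TE transcripts. Against untransformed plants, edgeR and limma-voom called 0 features (0% of TEs and 0% of other features in each direction), DESeq2 called 9 features and 0 TEs, and 1892 features had an unadjusted p under 0.05. The median log2 fold change of the listed TEs was -0.08. Full-length plants against the 2 sisters had 108 of 420 TEs lower (25.7%) and 0 (0%) higher, among them 92 of the 145 listed TEs, and 78 other features lower (0.459%) and 53 higher (0.312%). Without full-length plant R3 the 108 TEs became 25, and without R2, R4 or R5 45, 65 and 42.

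Few genes were lower in full-length plants, and most of them were on the list from the other double mutants. That list held 41 genes, of which 32 were tested. All 32 had a lower fitted level and 20 (62.5%, beside 0.159% of all features other than TEs) were called lower, with a median log2 fold change of -5.41 (range -7.75 to -0.47). The read filter acts on the shared direction and on the share called as it does for the listed TEs. Between untransformed plants and WT 27 of the 32 were called higher, and between full-length plants and WT 0 were by edgeR, DESeq2 or limma-voom. By edgeR's unadjusted p, 2 listed genes were higher than in WT under the 0.05 threshold and 0 were lower. Without full-length plant R3 only 4 of the 20 were called, without R1, R2, R4 and R5 11, 9, 9 and 8, without untransformed plant R2 or R3 13, and with DESeq2 12. The 27 features called lower in all likewise fell to 4 without R3, and to 14, 13, 15, 10 and 16 without full-length R1, R2, R4, R5 or untransformed R3.

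AT1G59930 had the most reads among the listed genes called lower. It encodes a MADS-box protein, a type of transcription factor, and RefSeq describes it as an imprinted gene expressed from the maternal copy. Its reads were 1551, 3758, 2731 and 720 in untransformed plants, 4592 and 1019 in the sisters, 7, 8, 11, 10 and 8 in full-length plants and 6 to 11 in WT. All plants with the transgene were thus near the WT level and all without it far above, at a log2 fold change of -7.25 ± 1.41 (SE, n = 5 and 4, edgeR adjusted p = 0.00548). The MADS-box gene beside it, AT1G59920, had 17, 49, 22 and 5 reads in untransformed plants and 0, 0, 0, 0 and 1 in full-length plants (adjusted p = 0.0616). Its call was lost in 7 of the 9 fits with 1 library left out. The non-coding RNA AT2G15555 had 30, 35, 23 and 20 reads in untransformed and 0 in all full-length plants, at least 27.3-fold lower (adjusted p = 0.00425).

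Other features with large fitted decreases were small in reads. AT5G29560, a caleosin-related gene, had 107, 73, 66 and 5 reads against 0, 1, 0, 1 and 0, a ratio of 95.1 with a 95% counting interval of 26.1 to 789.7 (adjusted p = 0.0328). AT3G44070, of the glycosyl hydrolase 35 family, had 10, 17, 9 and 10 reads against 0 in all (at least 11.6-fold lower, adjusted p = 0.022). AT5G04245, a long non-coding RNA, had 3, 6, 14 and 18 against 0 in all (at least 10.4-fold lower, adjusted p = 0.0328). The transcript G20720 had 52, 68, 62 and 29 reads against a single read in R4, a ratio of 159.9 with an interval of 28.4 to 6346 (adjusted p = 0.0514). G11703, G24668, AT4G06643 and the locus AT2G06562-AT2G06565 had 0 reads in full-length plants, with bounds of 13.1-fold, 14.9-fold, 10.9-fold and 9.85-fold. With 1 library left out, the call of G20720 was lost in 6 fits, and those of the other 4 in 7, 7, 9 and 6. Of these, G24668 rested on untransformed R3, with 48 of its 59 reads. Further called genes kept a few reads, such as the long non-coding RNA AT2G07213, with 27, 140, 42 and 73 reads in untransformed and 0, 5, 2, 2 and 1 in full-length plants (log2 fold change -4.27 ± 0.94, adjusted p = 0.0132).

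A few genes that are transcribed in WT were lowered toward the WT level. SQN, the cyclophilin 40 that in Arabidopsis promotes microRNA activity, was at 98.4, 88.1, 62.0 and 26.2 CPM in untransformed and 21.1, 31.3, 23.5, 20.3 and 25.0 CPM in full-length plants. Untransformed R5 lay within the full-length range. The log2 fold change was -1.49 ± 0.42 (SE, adjusted p = 0.0736), and the WT mean was 15.5 CPM. The call of SQN was lost in 8 of the 9 fits with 1 library left out. AT5G35480, which encodes a protein of unknown function, was at 998.8, 968.1, 997.0 and 467.5 CPM in untransformed and 226.5, 358.0, 224.7, 383.7 and 282.4 CPM in full-length plants, with a WT mean of 301.3 CPM. These ranges did not overlap (log2 fold change -1.54 ± 0.37, adjusted p = 0.0256).

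LTI30 and BOR5 were high in only some untransformed plants. LTI30, a dehydrin induced by cold and abscisic acid, had 2, 222, 3 and 258 reads in untransformed and 2 to 5 in full-length plants (adjusted p = 0.0826), so only R3 and R5 were high. BOR5, a boron transporter family member, had 143 reads in untransformed R5, 0 to 5 in the other untransformed plants, 115 reads in 1 WT plant and 1 read in all full-length plants (adjusted p = 0.0632). The call of LTI30 was lost without untransformed R3 or R5, that of BOR5 without untransformed R5, and both without any 1 of the full-length plants. HVA22D and HVA22E, 2 members of a family induced by abscisic acid, were highest in the same untransformed plants R3 and R5, at 65.0 and 124.3 CPM and at 31.6 and 31.0 CPM. LTI30, BOR5, HVA22D and HVA22E were not on the list from the other double mutants and were not called between untransformed plants and WT.

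The 3 genes called higher were low in reads. MAF5, a MADS-box repressor of flowering related to FLC, had no read in any untransformed plant and 4, 11, 54, 0 and 28 reads in full-length plants R1 to R5, at least 42.7-fold higher over the group (adjusted p = 0.0663). Plant R4 had none, and WT had 7, 1, 5, 0 and 0 reads. In the pooled libraries, MAF5 was called higher than in Col-0 in cdca7α cdca7β-1 (log2 fold change 4.45, edgeR adjusted p = 0.0107). It was not called in cdca7α cdca7β-2 (log2 fold change 0.32). AT2G48030, which encodes a DNAse I-like protein, had 6, 4, 4 and 4 reads in untransformed and 14, 22, 17, 2 and 14 in full-length plants (log2 fold change 2.33 ± 0.62, adjusted p = 0.0491), with 1 sister at 22 reads. The non-coding RNA AT4G12917 had 4, 17, 10 and 13 reads in untransformed and 15, 35, 45, 20 and 14 in full-length plants (log2 fold change 1.97 ± 0.51, adjusted p = 0.0419). It had 11 to 48 reads in WT. The number of genes called higher was 0 without full-length R2, 1 without R3 or R5 or without untransformed R3 or R5, and 5 without R4.

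**Figure D5:**
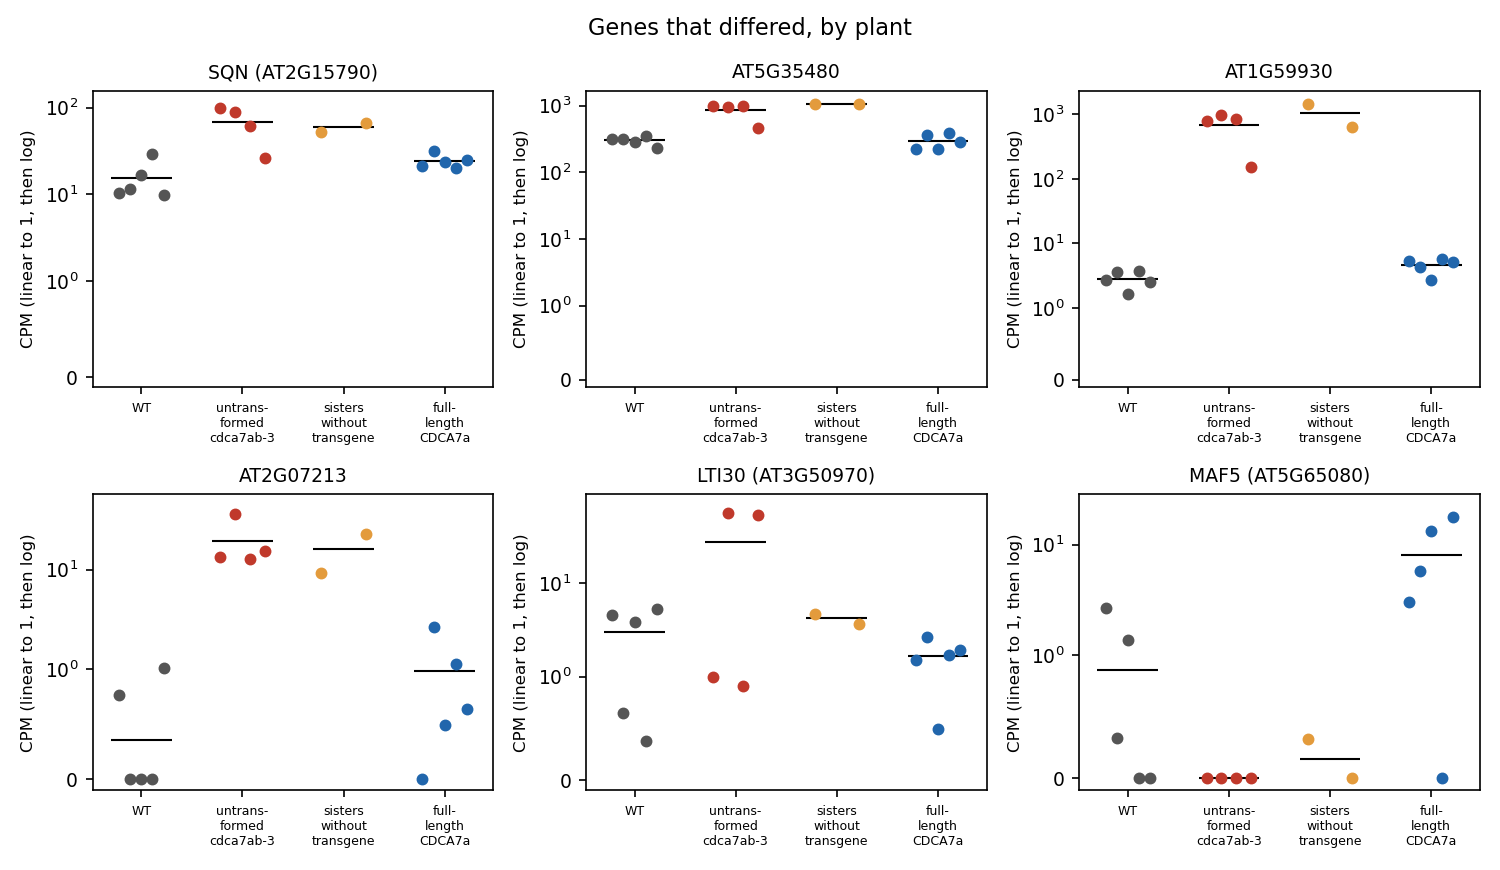
CPM of 6 genes, 1 point per plant, with group means as lines, on an axis that is linear up to 1 CPM and logarithmic above. SQN, AT5G35480, AT1G59930 and AT2G07213 have full-length means near WT and below the untransformed means, LTI30 is high in only 2 untransformed plants, and MAF5 is at 0 in all 4 untransformed plants and in full-length plant R4.

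Genes that act on DNA methylation and had enough reads to be tested did not pass edgeR's test in either direction. None was called among the 6 tested of 12 genes of CG methylation maintenance (log2 fold changes -1.27 to 0.37), 16 of 20 of RNA-directed DNA methylation (-1.73 to 1.55), 4 of 4 DNA demethylases (-0.14 to 0.57) and 6 of 7 MORC and MOM1 genes (-1.10 to 0.32). DDM1, CDCA7α, CDCA7β, VIM2, VIM3 and SUVH5 of the first list were not tested. Its tested genes MET1, VIM1, CMT3, CMT2, KYP and SUVH6 had 45, 17, 23, 35, 25 and 134 reads summed over untransformed plants. Of 11 genes picked for reported links to DNA methylation, 5 were tested (QQS, IBM1, BNS, MRD1 and SNC1) and 0 called (-3.75 to -0.21). SDC and FWA were not tested. MRD1, at the -3.75 end, was not higher in the mutant, with 20 to 42 reads in WT and 1, 7, 4 and 14 in untransformed plants. Also not called were 10 of 10 salicylic acid defence genes (-4.33 to 0.14), 10 of 10 clock genes (-1.64 to 1.13) and 5 of 8 DNA damage genes (-1.13 to 0.36). Of the 62 genes tested, 10 had an unadjusted p under 0.05, of which 7 were lower, limma-voom called 0 and DESeq2 called 1, the defence gene PR2 (log2 fold change -4.33 and adjusted p = 0.413 by edgeR). PR2 had 45, 495, 70 and 250 reads in untransformed plants, highest in R3 and R5 as LTI30 was, 5, 9, 14, 0 and 2 in full-length plants, and 10 to 25 in WT except 436 in WT R5. Among all features other than TEs, edgeR called 0.159% lower and 0.0177% higher at the adjusted threshold. The share of all features at an unadjusted p under 0.05 is not given here, so the 10 of 62 cannot be set against it.

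Against WT, full-length plants had 8 genes lower (0.0471%) and 8 higher (0.0471%) by edgeR, and 30 lower and 15 higher by DESeq2. The non-coding RNA AT2G01422 had 0 reads in all untransformed, sister and full-length plants and 47 to 140 in WT, and AT3G28899 had 0 against 15 to 48, so no read of either gene was found with the transgene. AT5G24240, a phosphoinositide 4-kinase gamma gene, had 0 to 3 reads in full-length plants, 0 to 4 in untransformed plants and 47 to 165 in WT (log2 fold change against WT -4.87, adjusted p = 2.73e-05). In the pooled libraries, AT2G01422, AT3G28899 and AT5G24240 were called lower than in Col-0 in cdca7α cdca7β-1 (log2 fold changes -6.76, -8.11 and -5.41). In cdca7α cdca7β-2 they were not called (0.05, -0.28 and 0.10). Only the first of these mutants shares the cdca7α-2 insertion with cdca7α cdca7β-3. The cause of the loss was not tested. MRD1 had 0, 0, 1, 0 and 0 reads in full-length plants, 1, 7, 4 and 14 in untransformed plants and 20 to 42 in WT (log2 fold change against WT -6.33, adjusted p = 0.000623). Its difference between full-length and untransformed plants did not pass the test (log2 fold change -3.75, adjusted p = 0.221). The 8 higher genes became 1 without full-length R1 and 3 without R5, and the 8 lower genes 13 without R3, 5 without R1 or R2 and 4 without R5.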

How the data were processed

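The authors collapsed duplicate reads by molecular identifier, mapped them to TAIR10 with STAR 2.7.11a and counted them with Salmon 1.10.1 on AtRTD3 transcripts, TAIR10 TEs and the transgene. The deposited sense tables hold the authors' estimated counts, not normalized. The deposited RPM tables hold signal values that the authors scaled to each library's total, and were used for the antisense strand and 1 alternative. Counts were summed per locus and rounded, and the 17510 features reaching 10 reads in 3 or more of 82 libraries were tested with edgeR 4.0.16 (TMM, 1 coefficient per genotype, prior count 0.125) in R 4.3.3, with DESeq2 1.42.0 and limma 3.58.1 as alternatives. Standard errors are the log2 fold change divided by the square root of the F statistic. Folds against a group with 0 reads use 3 reads over the group. Counting intervals and floors cover counting error only. Plants are separate individuals.

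Named were the 10 TEs and 10 other features lowered most, up to 5 raised most, the 5 most and the 5 least lowered listed TEs, and gene list members. Members and lists were chosen with earlier results of these data known. Replicate numbers did not pair plants. On simulated data for this comparison (17510 features), 93 of 100 features changed 4-fold and 100 of 100 changed 16-fold were recovered, with 20 unchanged features called. The simulation gave all features the same spread and changed only those above a minimum mean level. How well features with few reads or a wider spread are recovered was not measured. Gene names and products are from RefSeq TAIR10.1.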

Additional observations from a re-analysis of the deposited data

Results flagged for a closer look

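The tag level of full-length plant R3, 10.9 CPM, lay far from the 0.753 to 3.20 CPM of the other 4. AT4TE18245 was low in untransformed R2, at 10.5 CPM against 23.1 to 27.0 CPM in the other 3. AT1G59930 was low in untransformed R5, at 150 CPM against 774.6 to 965.3 CPM. In all, 63 groups of 4 or 5 plants were checked in this way, and chance marks about 1 in 20.

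Antisense reads, outside the comparisons above, also fell on the listed TEs. Their antisense RPM, summed over the 145 TEs, was 3930 on average in untransformed plants (3133 to 4695), 2837 and 1741 in the sisters, 173.9 to 512.3 in full-length plants and 201.4 to 300.8 in WT.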

How the results depend on the processing

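All values are counts of features unless said otherwise. TEs lower than in untransformed plants numbered 135 and, with one library left out, 30 to 117 (DESeq2 78). TEs higher numbered 0, and 0 to 1 with a library left out (1 with RPM). Other features lower numbered 27, and 4 to 25 with a library left out (50 with only the 9 libraries, 16 at an adjusted p of at most 0.05, 44 with RPM). Other features higher numbered 3, and 0 to 5 (5 with DESeq2, 5 with the replicate block, 21 with the sisters in the reference). Against WT, TEs lower numbered 0, and 0 to 1 (5 with DESeq2, 1 with RPM), and TEs higher 0, and 0 to 1 (4 with DESeq2). Other features lower than in WT numbered 8, and 4 to 13 (30 with DESeq2, 26 with RPM, 4 without the filter, 4 at an adjusted p of at most 0.05, 4 with only 14 libraries, a fit chosen after seeing the data). Those higher numbered 8, and 1 to 11 (15 with DESeq2, 5 with limma-voom, 4 without the filter, 4 at an adjusted p of at most 0.05, 0 with 14 libraries). TEs lower than in the sisters numbered 108, and 25 to 110 (35 with DESeq2, 48 at an adjusted p of at most 0.05). Untransformed plants had 187 TEs higher than WT, and 161 to 187 with a library left out (125 with DESeq2, 135 with 14 libraries, 203 without the filter), and sisters had 0 differing TEs in each of these fits that was run for them. Listed TEs called lower numbered 105, and 24 to 96 (66 with DESeq2), and listed genes 20, and 4 to 19 (12 with DESeq2). The median log2 fold change of the listed TEs, -6.62, was -6.74 to -6.37 with a library left out, -3.68 with a prior count of 2, -5.84 with DESeq2, -4.75 with limma-voom, -6.77 with only the 9 libraries, -6.90 with the replicate block, -6.39 with the sisters in the reference, -3.12 with RPM and -6.85 with 14 libraries. The difference in TE share stayed between -0.485 and -0.446 percentage points. The cause of these changes was not tested.

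Replicate numbers shared by untransformed and full-length plants had correlations of -0.18 to -0.05, so the numbers are only names. The replicate block gave 143 TEs lower, of which 133 were among the 135. Of 40 called features named, 8 were called under every alternative and 32 were lost in at least 1, and none reversed. With 0 reads in 66 listed TEs, depth limits how far below the mutant level they lay. At most 5 plants a group were measured.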
